A study of Homo sapiens with 6 samples.

Results

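High mobility group (HMG) chromatin proteins were followed in SK-N-BE(2)-C cells, an established human neuroblastoma line. The 9 genes were chosen by their symbols: HMGA1, HMGB1, HMGB2, HMGB3, HMGN1, HMGN2, HMGN3, HMGN4 and HMGN5, of 36601 genes in the count tables. All 9 passed the low-count filter. This list and the related lists below were chosen with earlier results of these data known. Shares of all genes set beside their counts are therefore background and not an independent test. The cells had been given the solvent DMSO as control, TSA or E6R, and each treatment had 2 libraries made with Seq-Well S3, a single-cell RNA method that pairs cells with barcoded beads in small wells. TSA usually stands for trichostatin A, which blocks the catalytic activity of histone deacetylases. The series title speaks of an inhibitor of a histone deacetylase complex that does not act on the enzyme. All groups share the same line and its genotype, and neither the structure of E6R nor doses, times or separate cultures were given in the sources used here. The p-values therefore measure the spread between these libraries, which may be technical.

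HMG proteins are abundant non-histone proteins of chromatin that fall into 3 families. HMGB proteins bend DNA through paired HMG boxes and carry an acidic tail. HMGN proteins bind inside the nucleosome and compete with linker histone H1, while HMGA proteins hold AT-rich DNA with AT-hooks. HMGB1 is also known as an alarm signal when it leaves the cell, and HMGA1 and HMGB2 as genes of dividing cells.

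The 6 libraries held 17589 cells that showed 500 or more genes and took no more than 20% of their unique molecular identifiers (UMIs) from mitochondrial genes. The cells of a library carried between 4206366 and 26180262 UMIs, with the DMSO sums the shallowest, and their median depth lay between 1053.5 and 1880 UMIs. Pairs of libraries, with 1861 to 3946 cells each, shared 11 to 58 cell barcodes of 12 bases. Why barcodes were shared was not tested. Mitochondrial genes took 5.83% and 6.20% of UMIs under DMSO, 6.08% and 9.71% under TSA, and 1.55% and 1.51% under E6R. The deepest 1% of cells in E6R replicate 2 accounted for 22.5% of its UMIs. All 10 adrenergic neuroblastoma markers averaged at least 20 CPM (UMI counts relative to library size, with TMM factors between libraries) under DMSO and under E6R, and 7 of 10 under TSA. Summed over 8 mesenchymal or fibroblast markers the level was 259 and 45.9 CPM under DMSO, 546 and 467 under TSA, and 524 and 43.2 under E6R (FN1 was the most abundant of them on average). The 6 immune markers summed to 8.43 to 14.5 CPM, and the 3 erythroid markers to 0 to 3.22 CPM. Epithelial markers (4 genes) summed to 12.8 to 63.7 CPM and endothelial markers (3 genes) to 1.88 to 65.6 CPM, each highest in replicate 1 of its group. The part of these markers in the HMG results was not tested.

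Upstream DNA is shown for 4 of the HMG genes that fell under TSA, because promoters of genes that move together can be compared by eye. RefSeq's table (GRCh38.p14) gave the 250 bases before a start site for 8 of the 9 genes. Each line holds the longest stretch of that window free of exons in GENCODE 29, 5′ to 3′ on the gene's strand, with searched motifs in capitals. The HMGB1 stretch is chr13:30465966-30466116 on the minus strand, 30 to 180 bases before the first listed of 3 starts and inside the gene's annotated span. The HMGB3 stretch is chrX:150983085-150983285 on the plus strand, 50 to 250 bases before the first listed of 2 starts, also inside the gene's span. The HMGN2 stretch is chr1:26472190-26472439 and the HMGN4 stretch chr6:26538116-26538365, both on the plus strand and outside the gene. The HMGN5 window lies wholly in exons of HMGN5 and SH3BGRL and is not printed.
HMGB1: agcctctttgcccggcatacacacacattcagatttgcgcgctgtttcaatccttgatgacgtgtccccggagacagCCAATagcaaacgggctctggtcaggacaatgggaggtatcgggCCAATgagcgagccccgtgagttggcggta
HMGB3: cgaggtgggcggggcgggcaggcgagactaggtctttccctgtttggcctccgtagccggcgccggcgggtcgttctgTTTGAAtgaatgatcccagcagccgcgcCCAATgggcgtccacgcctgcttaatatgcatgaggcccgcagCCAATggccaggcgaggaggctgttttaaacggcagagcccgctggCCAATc
HMGN2: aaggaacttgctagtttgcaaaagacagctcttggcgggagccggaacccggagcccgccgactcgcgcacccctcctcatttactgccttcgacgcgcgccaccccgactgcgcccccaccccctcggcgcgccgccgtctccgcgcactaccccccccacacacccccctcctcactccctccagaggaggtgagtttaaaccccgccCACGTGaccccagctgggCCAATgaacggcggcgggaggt
HMGN4: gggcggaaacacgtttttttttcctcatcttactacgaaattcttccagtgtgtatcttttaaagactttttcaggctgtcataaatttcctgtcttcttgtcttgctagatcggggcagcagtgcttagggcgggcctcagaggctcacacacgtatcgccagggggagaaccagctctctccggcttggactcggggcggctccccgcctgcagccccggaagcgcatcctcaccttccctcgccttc
The letters CCAAT or their reverse complement ATTGG stood 3 times in the whole 250-base window of HMGB1, at 103, 59 and 28 bases before the start, of which 2 are in the printed stretch. HMGB3 also had 3, at 144, 101 and 55 bases. Of 35116 RefSeq promoter windows, 32.0% held CCAAT on either strand and 2.93% held it at least 3 times. HMGN2 had 1 CCAAT and 1 CACGTG, a motif found in 6.34% of windows, and HMGB3 also held TTTGAA, as did 13.3%, counting its reverse complement TTCAAA. The window of the second HMGB1 start held 1 TTTGAA and 1 CCAAT, and that of the second HMGA1 start 1 CCAAT. HMGN4 and HMGN5 held none of these letters, and GGCGGGAA (or TTCCCGCC), present in 2.72% of windows, was in none of the windows of these 8 genes. HMGN1 and HMGN3, which did not pass the test under TSA, each had 2 CCAAT. Such matches describe letters and are not evidence of a bound factor.

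Under TSA, 5 of the 9 HMG genes fell and none rose. HMGB1, HMGB3, HMGN2, HMGN4 and HMGN5 were lower than under DMSO by 2.05-fold to 5.38-fold, whereas HMGA1, HMGB2, HMGN1 and HMGN3 did not pass the test. Among all 16763 genes tested, 29.7% were called in this comparison, 13.5% lower and 16.2% higher under TSA. The median log2 fold change was -1.04 over the 9 HMG genes and -0.01 over all genes tested. Fewer cells expressing a gene and less RNA per cell cannot be told apart in library sums. Scaling by total counts alone moved the median of all genes from -0.01 to -0.32 and the split of called genes from 2720 higher and 2255 lower to 1717 higher and 3361 lower; the 5 HMG genes stayed lower and called under it. The libraries of TSA and DMSO did not overlap for 8 of 9 HMG genes, 7 of them lower, against 71.3% of all genes tested.

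**Figure D1:**
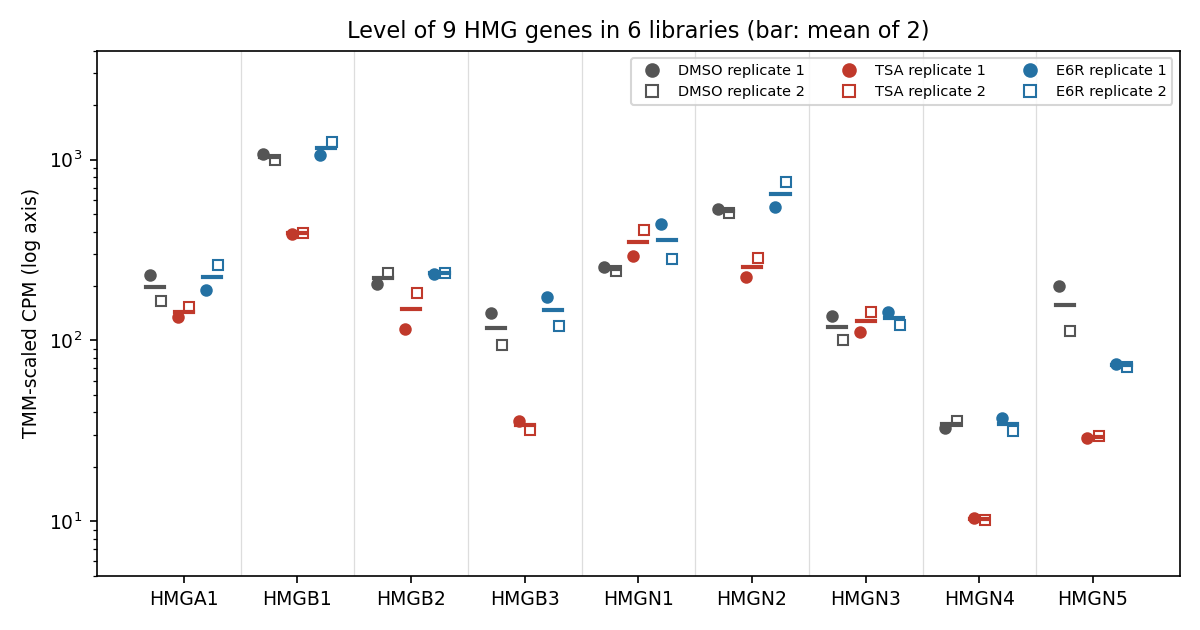
TMM-scaled CPM (log axis) of the 9 HMG genes in each of 6 libraries, coloured by treatment, with filled circles for replicate 1, open squares for replicate 2 and a bar at the mean of 2. Both TSA libraries sit below all DMSO and E6R libraries for HMGA1, HMGB1, HMGB2, HMGB3, HMGN2, HMGN4 and HMGN5, and treatments overlap for HMGN3.

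Of the HMGB genes, HMGB1 (chr13:30456704-30617597, minus strand, GRCh38) encodes the family's most studied DNA bender. It measured 1075 and 1001 CPM in DMSO replicates 1 and 2, 389 and 391.7 CPM under TSA, and 1061 and 1247 CPM under E6R. Both TSA libraries lay far below the other 4, which overlapped. HMGB1 fell by 1.41 (log2; SE 0.20; edgeR adjusted p = 0.0027) under TSA, a 2.66-fold difference, and the call held in all 19 alternative analyses.

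HMGB3 (chrX:150980509-150990775, plus strand), a family member known from blood progenitors, was at 141 and 94.5 CPM under DMSO, at 35.7 and 32.0 CPM under TSA, and at 173 and 120 CPM under E6R. The TSA libraries were again the 2 lowest, and replicate 1 was higher than replicate 2 under each treatment. Its log2 fold change under TSA was -1.80 (SE 0.27, adjusted p = 0.0034), and it was called in all 19 alternatives.

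HMGB2 (chr4:173331695-173335125, minus strand), the HMGB protein of proliferating cells and a part of the SET complex, behaved less uniformly. It stood at 205 and 236 CPM under DMSO, 115 and 183 CPM under TSA, and 234 and 237 CPM under E6R. The TSA libraries were lowest but differed from each other by more than the DMSO pair, and the log2 fold change of -0.57 (SE 0.25) gave an adjusted p of 0.12. Total-count scaling (adjusted p = 0.0256) and no low-count filter (0.045) brought HMGB2 past the threshold. Per HMGB1 UMI, HMGB2 UMIs numbered 0.191 and 0.236 under DMSO, 0.296 and 0.467 under TSA, and 0.220 and 0.190 under E6R. The ratio was higher in both TSA libraries than in the other 4, with an exact two-sided permutation p of 0.33 for each contrast with TSA, the smallest that 2 libraries against 2 allow.

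In the HMGN family, HMGN5 (chrX:81113701-81201942, minus strand), which carries a long acidic tail and is known to loosen compact chromatin, showed the lowest fitted log2 fold change of the 9. DMSO libraries held 200 and 113 CPM, TSA libraries 28.7 and 29.4 CPM, and E6R libraries 74.2 and 71.3 CPM. The 3 treatments did not overlap, and the DMSO pair was the widest apart. TSA against DMSO gave -2.43 on the log2 scale (SE 0.28; adjusted p = 0.0015), or 5.38-fold, and all 19 alternatives called it.

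HMGN4 (chr6:26538405-26546254, plus strand), a relative of HMGN2, was at 32.9 and 35.8 CPM under DMSO, 10.4 and 10.2 CPM under TSA, and 37.2 and 31.7 CPM under E6R. TSA stood apart from the other 2 treatments, which overlapped. The log2 fold change under TSA was -1.74 (SE 0.23, adjusted p = 0.0022) and was called in all 19 alternatives.

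HMGN2 (chr1:26472450-26475972, plus strand), a nucleosome-binding protein of open chromatin, was at 535 and 509 CPM under DMSO, 223 and 285 CPM under TSA, and 548 and 750 CPM under E6R. No treatment overlapped another, with E6R highest and TSA lowest. Under TSA it fell by 1.04 (log2; SE 0.23; adjusted p = 0.0142). This call was lost when DMSO replicate 1 (adjusted p = 0.065), TSA replicate 1 (0.122) or TSA replicate 2 (0.062) was left out, and in the 25% of cells lowest for mitotic genes (0.092). Of the 50-base stretches in the last 500 bases of its transcript, 23.1% also occur in TRMT5, HMGN2P46 or RPL12P38, so some of its reads could be shared with those genes.

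HMGN1 (chr21:39342315-39349647, minus strand), the close relative of HMGN2 encoded on chromosome 21, was at 255 and 241 CPM under DMSO, 292 and 407 CPM under TSA, and 440 and 282 CPM under E6R. The treated libraries were all above the DMSO pair, and TSA and E6R overlapped. Its log2 fold change under TSA was 0.49 (SE 0.27) with an adjusted p of 0.199. HMGN2 UMIs per HMGN1 UMI numbered 2.09 and 2.11 under DMSO, 0.765 and 0.701 under TSA, and 1.25 and 2.66 under E6R. The order of the pair in UMIs was thus turned in both TSA libraries, where HMGN1 gave more UMIs than HMGN2 (exact two-sided permutation p = 0.33 against DMSO and against E6R).

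HMGN3 (chr6:79201245-79234738, minus strand), an HMGN protein abundant in endocrine and nervous tissue, was at 136 and 101 CPM under DMSO, 111 and 144 CPM under TSA, and 143 and 122 CPM under E6R. All treatments overlapped. Its fitted log2 fold change under TSA was 0.10 (adjusted p = 0.757), which turned to -0.22 with total-count scaling. HMGA1 (chr6:34236873-34246231, plus strand), an AT-hook protein common in embryonic and tumour cells, was at 230.5 and 164 CPM under DMSO, 134 and 152 CPM under TSA, and 191 and 260.5 CPM under E6R. The TSA libraries were lowest, close below DMSO replicate 2. The log2 fold change of HMGA1 was -0.46 (SE 0.25, adjusted p = 0.188), and none of 19 alternatives called it.

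Summed over the 9 genes, HMG transcripts made up 2811 and 2496 CPM under DMSO, 1339 and 1634 CPM under TSA, and 2900 and 3122 CPM under E6R. The TSA sums were below all others. The makeup of the sum also differed, since HMGN1 supplied 9.08% and 9.65% of these UMIs under DMSO, 21.8% and 24.9% under TSA, and 15.2% and 9.03% under E6R. HMGB1 supplied 38.2% and 40.1% under DMSO, 29.05% and 24.0% under TSA, and 36.6% and 39.95% under E6R. These are shares of UMIs, not divided by transcript length.

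**Figure D2:**
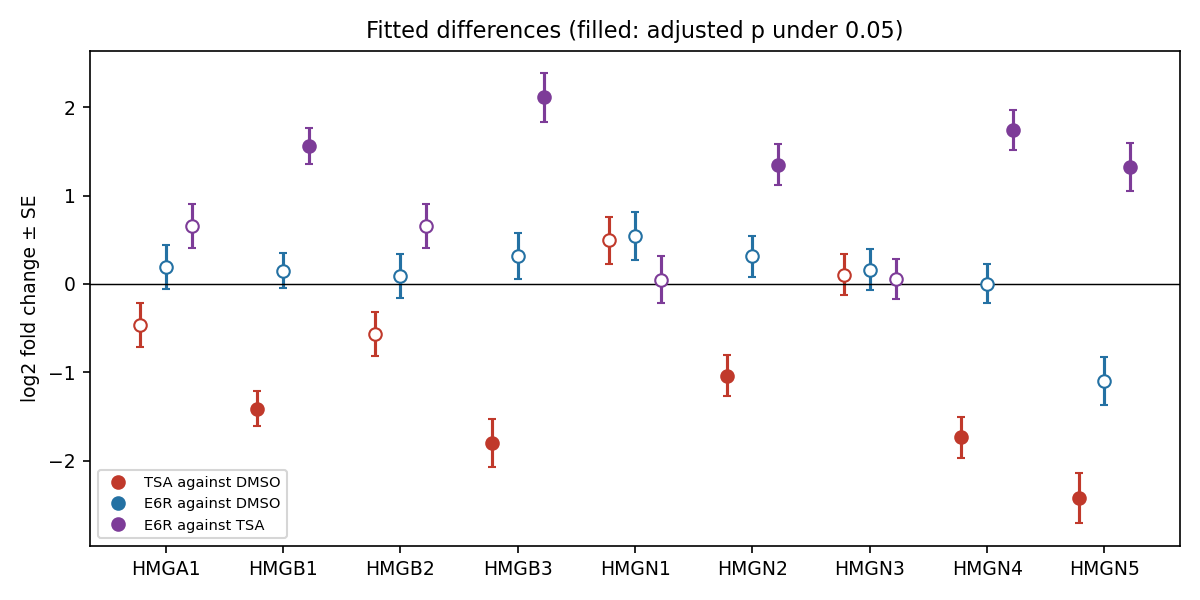
Fitted log2 fold change with its standard error for each HMG gene in 3 comparisons, filled where the adjusted p was under 0.05. TSA against DMSO runs from -2.43 (HMGN5) to 0.49 (HMGN1), and E6R against DMSO has no filled point.

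Under E6R, none of the 9 HMG genes passed the test against DMSO, where edgeR called 0% of the 16763 genes. At an unadjusted p under 0.05, 1 HMG gene (HMGN5) and 17.4% of all genes passed. Fitted log2 fold changes of the other 8 lay between 0.00 (HMGN4) and 0.54 (HMGN1), and the median over the 9 was 0.16, against 0.03 over all genes tested. HMGN5 was lower in both E6R libraries than in both DMSO libraries (fitted log2 difference -1.10, SE 0.27; adjusted p = 0.205). DESeq2 called it (adjusted p = 0.0341, with 2.02% of genes called), as did edgeR without a low-count filter (0.0152, with 3.47% called). Without DMSO replicate 1, the higher of the control pair, its log2 fold change was -0.50 (adjusted p = 0.382). The libraries of E6R and DMSO did not overlap for 3 of the 9 HMG genes, HMGN1 and HMGN2 higher and HMGN5 lower, against 47.3% of all genes tested. The E6R and TSA contrasts share the DMSO libraries, so their values are not independent.

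Set directly against TSA, E6R left 5 HMG genes higher and none lower, where 38.2% of all genes were called and 18.7% were higher under E6R. On the log2 scale HMGB3 differed by 2.11 (SE 0.27; adjusted p = 0.0012), HMGN4 by 1.74 (SE 0.23, 0.0012) and HMGB1 by 1.56 (SE 0.20, 0.0012). HMGN2 differed by 1.35 (SE 0.24, adjusted p = 0.0037). HMGN5 differed by 1.32 (SE 0.27, adjusted p = 0.0075), and this call was lost without TSA replicate 1 (log2 difference 1.31, adjusted p = 0.0612) or TSA replicate 2 (1.34, 0.063). The calls of the other 4 held in all 19 alternatives. HMGA1 (log2 difference 0.66, adjusted p = 0.0674) and HMGB2 (0.66, adjusted p = 0.0675) lay just outside the threshold, and 8 and 7 of 19 alternatives called them. HMGN1 (0.05) and HMGN3 (0.06) had differences smaller than their standard errors of 0.27 and 0.23. Mitochondrial shares differ between these treatments as given above, and without mitochondrial and ribosomal protein genes the 5 calls held and HMGA1 and HMGB2 were called too.

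The share of cells with at least 1 UMI was compared as well. To compare libraries of different depth, each cell was thinned to 1000 UMIs, which left 2869 DMSO, 4641 TSA and 4427 E6R cells and dropped 2124, 1118 and 2410 shallower ones. HMGB1 was found in 64.1% (95% Wilson interval 61.3% to 66.8%) and 63.6% of thinned DMSO cells, 28.1% and 28.4% of TSA cells, and 63.8% and 67.1% of E6R cells. Intervals cover counting error only. HMGN2 was found in 43.3% and 41.0% under DMSO, 17.98% and 21.5% under TSA, and 41.2% and 53.6% under E6R. Both genes were thus seen in fewer cells in the TSA libraries than in any other library. HMGN5 was found in 19.5% and 11.1% of DMSO cells, 2.27% and 2.51% of TSA cells, and 8.09% and 6.87% of E6R cells. HMGB3 was found in 12.6% and 9.51%, 3.67% and 2.37%, and 15.4% and 11.1%, and HMGN4 in 3.12% and 3.63%, 1.24% and 0.97%, and 3.87% and 3.55%, in the same order. For these rarer transcripts too, each TSA library was below the other 4. HMGN1 (24.9% and 24.6% under DMSO, 21.9% and 29.6% under TSA) and HMGN3 (13.2% and 10.999%, then 10.04% and 13.1%) overlapped between those treatments. HMGB2 was found in 18.9% and 22.1%, 10.3% and 14.9%, and 21.5% and 22.9%, and HMGA1 in 22.2% and 15.9%, 9.18% and 11.4%, and 15.8% and 18.9%. The exact permutation test cannot go below p = 0.33 for such shares. Over all 9 genes and 6 libraries the variance of thinned counts was 0.96 to 1.34 times their mean. At a fixed depth these shares therefore largely follow the mean count and repeat the levels given above. They do not separate fewer expressing cells from less RNA per cell.

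Without thinning, HMGB1 was found in 75.9% and 68.1% of DMSO cells, 52.4% and 51.3% of TSA cells, and 80.1% and 72.9% of E6R cells. For HMGA1 and HMGB2 the unthinned share was higher under TSA than under DMSO, by 2.20 and 2.25 percentage points, so the order of these 2 depends on depth. The line offers no cell type that should lack these genes. Small barcodes, with a median of 121 to 298 UMIs, carried HMGB1 at 1185 and 1004 plain CPM under DMSO, 325 and 342 under TSA, and 1090 and 1006 under E6R. Their levels therefore moved with treatment as those of the cells did, and over all 9 genes and 6 libraries the level in cells was 0.557 to 1.46 times that in small barcodes. The part of free RNA in these shares was not tested.

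**Figure D3:**
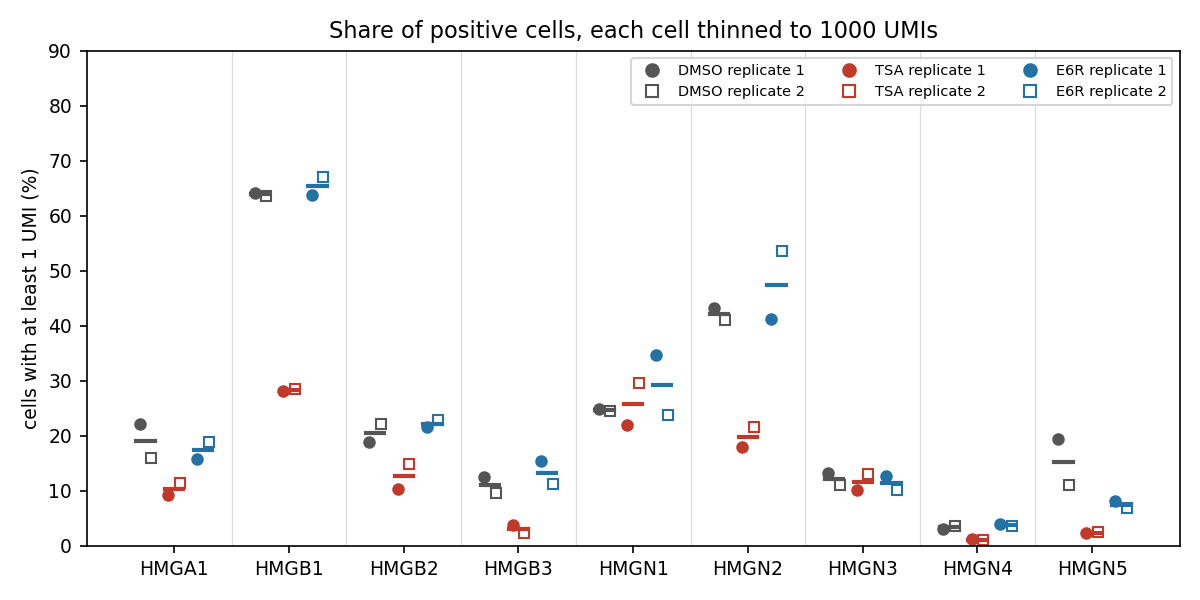
Share of cells with at least 1 UMI of each HMG gene, in percent, after thinning each cell to 1000 UMIs, by library, with a bar at the mean of 2. For HMGB1 the TSA libraries stand at 28.1% and 28.4% and the other 4 between 63.6% and 67.1%.

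Within libraries, cells were split by the UMIs they held from 52 mitotic genes, which include no HMG gene, and cells at or above the 75 percentile were compared with those at or below the 25 percentile. HMGB2 was higher in mitotic-high cells in 6 of 6 libraries, with log2 ratios of 2.24 and 0.60 under DMSO, 1.68 and 0.63 under TSA, and 1.92 and 1.09 under E6R. Replicate 1 gave the higher ratio under each treatment. Mean mitotic UMIs per cell in mitotic-high and mitotic-low cells were 19.8 and 2.56 in DMSO replicate 1. In DMSO replicate 2 they were 16.9 and 6.14. Under TSA they were 17.7 and 3.22 in replicate 1, and 16.9 and 5.26 in replicate 2. Under E6R they were 17.1 and 3.19 in replicate 1, and 18.4 and 4.81 in replicate 2. The part of these means in the HMGB2 ratios was not tested. The mean HMGB2 ratio was 1.36 ± 0.69 (SD, n = 6, exact two-sided sign-flip permutation p = 0.0312, adjusted over the 9 genes p = 0.0938). HMGN2 (0.54 ± 0.27) and HMGB1 (0.49 ± 0.20) were also higher in 6 of 6 libraries, each with the same exact permutation p. This p is the smallest that 6 libraries can give, and no HMG gene passed after adjustment. With the cells split at tertiles, HMGN2 was higher in 5 of 6 libraries.

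The other 6 genes were not uniform across libraries. HMGB3 was higher in 5 of 6 (mean log2 ratio 0.55 ± 0.77, SD), with TSA replicate 1 at -0.91 on 11 and 22 UMIs. HMGA1 (0.20 ± 0.32), HMGN1 (0.15 ± 0.30) and HMGN5 (0.27 ± 0.20) were each higher in 5 of 6. HMGN4 (-0.40 ± 0.53) and HMGN3 (-0.09 ± 0.18) were higher in 1 of 6. Cells were split in the same way by 43 replication genes. HMGB1 (0.27 ± 0.19) and HMGN2 (0.27 ± 0.10) were higher in 6 of 6 libraries. HMGB2 (0.35 ± 0.39), HMGA1 (0.27 ± 0.22) and HMGN1 (0.12 ± 0.17) were higher in 5 of 6. The adjusted exact permutation p was 0.1125 for each of these genes. HMGB3 (0.15 ± 0.29) was higher in 4 of 6 libraries and HMGN3 (0.10 ± 0.28) in 3 of 6. HMGN5 (-0.13 ± 0.30) was higher in 2 of 6 and HMGN4 (-0.17 ± 0.76) in 1 of 6. With cells thinned to 500 UMIs, HMGB1 was higher in 4 of 6 libraries, HMGN2, HMGA1 and HMGN1 in 5 of 6 and HMGB2 in 6 of 6. In all, 18 such ratios were tested. These groups are ranges of a score and not cell types: between 117 and 487 cells per library lay within 1 UMI of the upper mitotic limit. For the upper replication limit it was between 360 and 1017 cells.

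**Figure D4:**
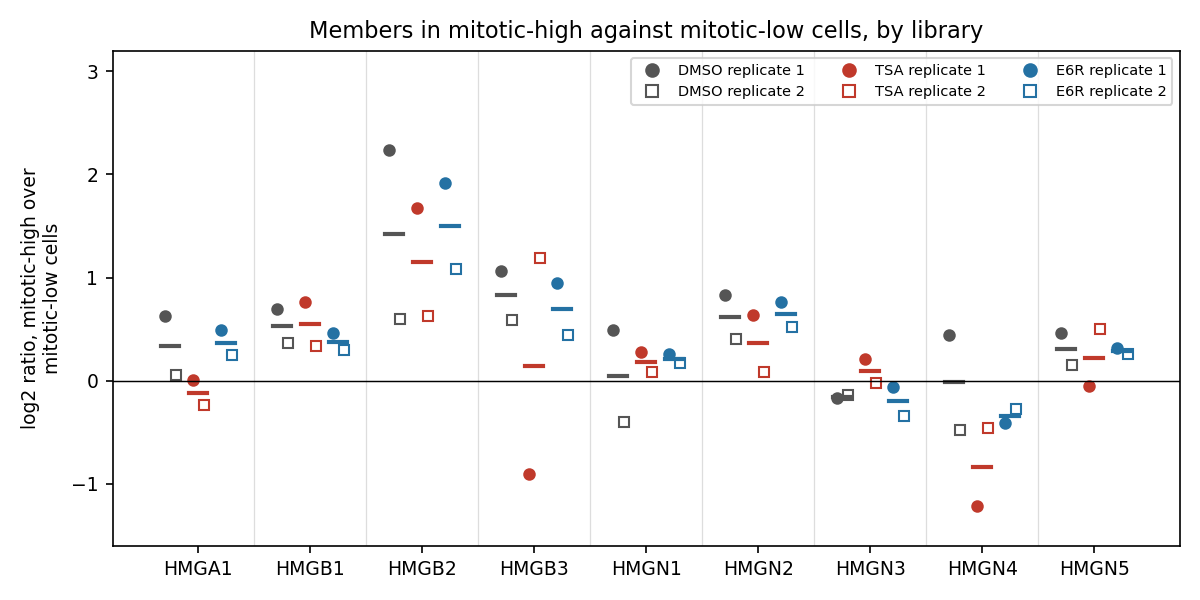
Log2 ratio of each HMG gene in mitotic-high over mitotic-low cells of the same library, by treatment and replicate, with a bar at the mean of 2. HMGB2 lies between 0.60 and 2.24 in the 6 libraries, while HMGN3 stays between -0.34 and 0.21.

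Across thinned cells the genes most like HMGB2, by Pearson's r averaged over 6 libraries among 2426 candidate genes, were MKI67 (0.12), TOP2A (0.12) and CENPF (0.11), all genes of mitotic cells. HMGB1 was most like HSP90AA1 (0.11), NUCKS1 (0.08) and PTMA (0.08), and HMGN2 was most like HSP90AA1 (0.07), HMGB1 (0.06) and TOP2A (0.06). The closest genes of HMGN1 included RPS18 and HMGB1, those of HMGN3 were RPL6, RPL26 and SSR2, and those of HMGA1 were RPL7L1, CHGA and OGFOD1, at 0.03 to 0.05. Among these 6 HMG genes the highest mean r was 0.06, for HMGB1 with HMGB2 and for HMGB1 with HMGN2. In such sparse counts these values are weak. They were taken within each library among cells of equal thinned depth, and they only describe the cells.

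Linker histones, which HMGN proteins compete with on nucleosomes, were measured beside the HMG genes. Under TSA, 4 of the 5 linker histone genes tested and reported here rose and none fell, where 16.2% of all genes rose. Their median log2 fold change was 1.30, and that of all genes -0.01. H1-2, a linker histone made mainly in S phase, was at 31.0 and 73.1 CPM under DMSO, 166 and 203 CPM under TSA, and 95.9 and 151 CPM under E6R. Its treatments did not overlap, with TSA highest (log2 fold change under TSA 1.82, SE 0.40, adjusted p = 0.013). H1-4, a linker histone of the same cluster, was at 38.9 and 90.3 CPM under DMSO, 157 and 268 CPM under TSA, and 84.6 and 156 CPM under E6R (log2 fold change under TSA 1.72, SE 0.46, adjusted p = 0.0274). Both TSA libraries were above the other 4. Transcripts of replication-dependent histones such as these usually lack poly(A) tails, so a capture by poly(A) reads only part of them. E6R against DMSO called none of the 5, where edgeR called 0% of all genes. The median log2 fold change of the 5 in that comparison was 1.14, and that of all genes 0.03. E6R was lower than TSA for H1-10 (log2 difference -1.14, adjusted p = 0.0051).

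The SET complex and related acidic chaperones, among which HMGB2 is found, fell under TSA for 5 of 9 tested genes and rose for none (median log2 fold change -0.75), where 13.5% of all genes fell. ANP32B, an acidic histone chaperone, was at 616 and 628 CPM under DMSO, 49.4 and 49.2 CPM under TSA, and 542 and 746 CPM under E6R. TSA was far below the rest (log2 fold change -3.66, SE 0.24, adjusted p = 0.00049). ANP32A, its close relative, was at 222 and 134 CPM under DMSO, 62.0 and 51.4 CPM under TSA, and 318 and 259 CPM under E6R (log2 fold change under TSA -1.65, SE 0.28, adjusted p = 0.0050). Against TSA, 8 of these 9 genes were higher under E6R, where 18.7% of all genes were. Against DMSO none was called under E6R, where edgeR called 0% of all genes, and the list's median log2 fold change was 0.58.

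Other HMG-box genes and genes related to HMG proteins moved in both directions. Under TSA, 4 of 21 tested rose and 5 fell, with a median of 0.05, where 29.7% of all genes were called. HMG20B, a subunit of the LSD1-CoREST corepressor, went from 61.6 and 47.6 CPM under DMSO to 229 and 286 CPM under TSA, and was at 64.7 and 45.1 CPM under E6R (log2 fold change under TSA 2.24, SE 0.26, adjusted p = 0.0015). UBTF, the HMG-box factor of ribosomal RNA genes, went from 173 and 141 CPM to 32.3 and 35.7 CPM, and was at 187 and 190 CPM under E6R (-2.21, SE 0.20, adjusted p = 0.00084). E6R against TSA gave 7 higher and 4 lower, among them UBTF (2.47) and HMG20B (-2.23), where 38.2% of all genes were called. E6R against DMSO gave none, where edgeR called 0% of all genes.

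Of 10 receptors and partners of extracellular HMGB1, 5 were tested. TLR4, a receptor for HMGB1 outside the cell, was at 22.5 and 21.99 CPM under DMSO, 1.29 and 0.52 CPM under TSA, and 54.3 and 43.3 CPM under E6R. It fell under TSA (log2 fold change -4.58, SE 0.40, adjusted p = 0.00073) and was the only one called there. Of all genes, 29.7% were called in that comparison. E6R was higher than TSA for TLR4 (5.71, adjusted p = 0.00023) and for SDC1, a surface proteoglycan (1.69, adjusted p = 0.0169). There 38.2% of all genes were called and 18.7% were higher under E6R. Neither gene was called in E6R against DMSO, where edgeR called 0% of all genes.

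**Figure D5:**
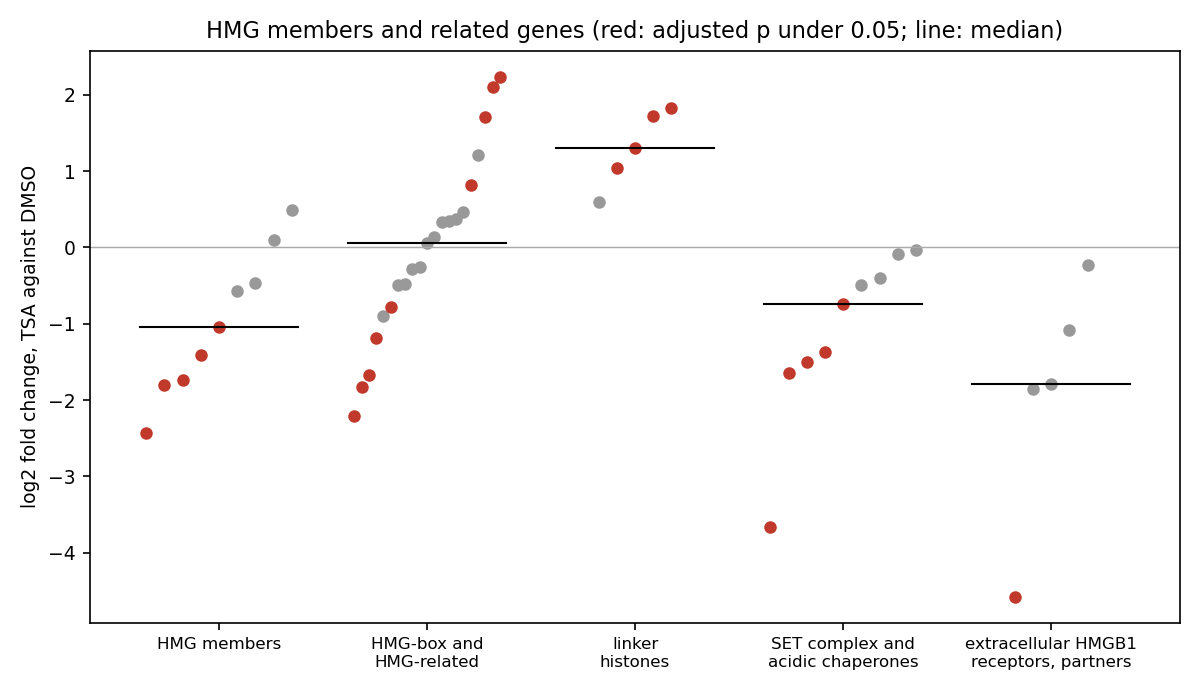
Log2 fold change under TSA against DMSO for the 9 HMG genes and the tested genes of 4 related lists, red where the adjusted p was under 0.05 and grey otherwise, with a line at the list's median. Red points of the linker histones are all above 0 and those of the SET and chaperone list all below 0.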

How the data were processed

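The deposited matrices held whole-number UMI counts per gene and barcode, not normalized, for 6 Seq-Well libraries. STARsolo 2.7.9a and GRCh38 are named in the submitters' processing notes. The annotation and the strand rule of counting are not given in the sources used here. Of the 36601 gene identifiers, 94.6% were found in GENCODE 29, which gave the gene coordinates; promoter sequences are RefSeq's (GRCh38.p14).

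Barcodes with at least 500 genes and at most 20% mitochondrial UMIs were kept, and no doublet caller was run. UMIs were summed per library, since cells are not replicates. Sums were tested with edgeR 4.0.16 (R 4.3.3): TMM scaling, filterByExpr, the quasi-likelihood test, all 6 libraries in one fit of group alone, and adjustment by Benjamini and Hochberg over all 16763 genes at 0.05. The common biological coefficient of variation was 0.288, and the chi-square per degree of freedom between replicates was 17.1, 36.6 and 70.0 for DMSO, TSA and E6R. Standard errors came from the F statistic. Shares, ratios and score-based comparisons used exact permutation tests over libraries, and Wilson intervals came from scipy 1.17.1. High and low sums had 0.5 UMI added. The scripts were tested on simulated data. Alternatives included DESeq2 1.42.0, other scalings and filters, a replicate block and each library left out. The HMG genes and the related lists were chosen with earlier results of these data known. Named in the text were all 9 HMG genes, the 2 largest called changes per related list and comparison with a mean of at least 20 CPM, and the 3 genes most alike for HMG genes found in at least 5% of thinned cells of every library. Of the genes these rules give, 1 linker histone and 1 gene most alike are not reported here, and the linker histone is left out of its list's counts.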

Additional observations from a re-analysis of the deposited data

How the results depend on the processing

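Of 57 recounts of called HMG genes over 3 comparisons, 55 stayed within 1.5 times the reported number; E6R against DMSO went from 0 to 1 (HMGN5) with DESeq2 and 1 without a low-count filter. Each comparison had 19 alternatives, and no called HMG gene changed direction in any of them. Fitted differences near 0 did change sign. For TSA against DMSO, HMGN3 was at -0.22 with total counts, -0.019 at the 10% mitochondrial limit, -0.083 in the lowest mitotic quartile, and -0.18 to 0.37 with 1 library left out. For E6R against DMSO, HMGA1 was at -0.11 in cells thinned to 1000 UMIs and -0.011 to 0.59 with 1 library left out; HMGB2 was at -0.040 with total counts, -0.019 with thinned library sums and -0.25 in the lowest mitotic quartile; HMGN3 was at -0.073 in thinned cells. HMGN4 was at -0.13 with total counts, -0.0086 at the 10% limit, -0.10 without the 5% of cells with most UMIs, -0.066 with thinned sums, -0.087 in the lowest mitotic quartile, and -0.0077 to 0.16 with 1 library left out. For E6R against TSA, HMGN1 was at -0.028 without the largest cells, -0.10 in thinned cells and -0.24 to 0.35 with 1 library left out, and HMGN3 at -0.097, -0.29 and -0.12 to 0.26, and -0.0015 with thinned sums. The cause was not tested.

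Without thinning, the difference in positive cells turned for HMGA1 (2.20 points TSA against DMSO, 10.6 E6R against DMSO), HMGB2 (2.25, TSA against DMSO), HMGN1 (-0.55, E6R against TSA) and HMGN3 (10.6 TSA and 10.4 E6R, each against DMSO). At 500 UMIs it turned for HMGB1 (-0.57) and HMGN4 (-0.54), both E6R against DMSO. The HMGB2 to HMGB1 log2 ratio, E6R against DMSO, was 0.093 in thinned cells. At 500 UMIs the mitotic ratio was 0.085 for HMGN3 and 0.23 for HMGN4, and the replication ratio -0.027 and 0.067.

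Replicate numbers are shared between treatments, but nothing in the labels says that they pair samples; deviations correlated at 0.24 (DMSO and TSA), 0.56 (DMSO and E6R) and 0.17 (TSA and E6R) over 7515 genes. With a replicate block, 5, 0 and 7 HMG genes were called in the 3 comparisons, HMGA1 (adjusted p = 0.0444) and HMGB2 (0.0226) being added in E6R against TSA, and HMGN4 under E6R against DMSO was at -0.00031. Over all genes, TSA against DMSO gave 4975 calls, and 1416 to 2696 without 1 of its own libraries or 2328 in the lowest mitotic quartile. E6R against DMSO gave 338 with DESeq2, 1095 without a filter, 19 with the block, 3 without either E6R library, and 1 with all barcodes or without mitochondrial and ribosomal protein genes. E6R against TSA gave 6408, and 2628 or 3175 without a TSA library, 4145 in thinned cells and 3732 in the lowest mitotic quartile. With 2 libraries a group, the exact permutation test of a single value cannot reach significance, and counts were fewest for HMGN4 (155 and 187 UMIs under DMSO, 137 and 117 under TSA).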
